A study of Homo sapiens with 7 samples.

Results

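The chaperones described here are 44 genes chosen by name: 2 heat shock factors, 3 HSP90 proteins, 10 HSP70 proteins, 6 HSP40 proteins, 2 small heat shock proteins, the HSP60 and HSP10 pair, 8 subunits of the CCT chaperonin, 7 HSP90 co-chaperones, 3 BAG proteins and the ubiquitin ligase STUB1. All 44 have a row with a test in the authors' deposited table, among 16522 genes tested in all. Textbook localization places 36 of them in the cytosol, 5 in the mitochondrion and 2, the heat shock factors, in both nucleus and cytosol. HSPA13, known as a microsomal HSP70 of the endoplasmic reticulum, lies outside the compartments that the name of the set gives.

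RNA was sequenced from PC9, an established human lung adenocarcinoma line that carries an activating EGFR mutation. The tested cells were AXL knockout PC9, in 4 libraries from 2 clones with 2 libraries each, and the comparison was with parental PC9, in 3 libraries. Clone names in the series' design text differ from those on the samples and were not matched to them. AXL, the gene removed, encodes a GAS6 receptor with tyrosine kinase activity, and no drug or other agent is labelled for any of these libraries. The knockout libraries are labelled as clones, a term for cells expanded from a single cell. Changes that arose in a founding cell cannot be told apart from those of the knockout. The labels do not state whether the libraries within a group came from separate cultures. Bulk MARS-seq, the method used, counts tags from the 3′ ends of polyadenylated RNA.

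Chaperones hold unfolded proteins and help them fold. HSP70 binds short hydrophobic stretches with the help of HSP40 proteins, which trigger its ATPase, and of exchange factors such as the BAG proteins, and STIP1 hands clients on from HSP70 to HSP90, which matures kinases and receptors, EGFR mutants among them. HSP60 and CCT are closed folding chambers of the mitochondrion and the cytosol, with actin and tubulin as known CCT clients. When unfolded proteins accumulate, the factor HSF1 binds heat shock elements, which are inverted repeats of the core GAA, and raises many of these genes.

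The authors' deposited table gives, per gene, a mean normalized count over the 7 libraries, a log2 fold change, the standard error (SE) of that change and a DESeq2 p-value adjusted over all genes. All fold changes, errors and adjusted p-values below are from that table, with an adjusted p under 0.05 as the threshold, and a positive fold change means higher in knockout cells. The level of each group in normalized counts was derived from these mean and fold values, so it has no spread between libraries of its own. The means sum to 12209504 normalized counts. AXL itself stood at 18.2 normalized counts in knockout cells and 1417 in parental cells, a log2 difference of -6.28 ± 0.18 (SE). All 5 epithelial markers (EPCAM, KRT8, KRT18, KRT19, CDH1) were detected. KRT8 (log2 1.04 ± 0.04), KRT18 (log2 0.72 ± 0.04) and KRT19 (log2 0.49 ± 0.06) were higher in knockout cells, CDH1 was lower (log2 -0.33 ± 0.06) and EPCAM did not pass (log2 -0.03 ± 0.04). Of 9 markers of blood, vessel and stromal cells 5 had no row and VWF and ACTA2 had means of 3.2 and 3.7. PECAM1, the remaining vessel marker, stood at 1777 normalized counts in knockout cells and 351 in parental cells, and COL1A1, a collagen of stromal cells, at 84.0 in knockout cells and 126 in parental cells. The part of these markers in the results was not tested.

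Of the 44 genes, 25 were lower in AXL knockout cells, 7 were higher and 12 did not pass. These counts are 56.8% and 15.9% of the genes, beside 18.5% of all 16522 genes called lower and 19.5% called higher (38.0% in either direction). With a minimum of 0.5 on the log2 scale, 5 members were lower and 2 higher, beside 9.02% of all genes lower and 9.65% higher. The median log2 fold change of the 44 was -0.16 and that of all genes -0.01. With t quantiles of 5 degrees of freedom, 18 members were lower and 3 higher, beside 1614 lower and 1862 higher of all 16522 genes. The calls of HSF2, TRAP1, HSPA4L, HSPA14, HSPA9, BAG1, CDC37, CCT4, CCT5, CCT7 and CCT8 were lost with these quantiles. Summed over the 44 genes, the level was 270570 normalized counts in knockout cells and 354428 in parental cells, a difference of -23.7%. Their share of all counts was 2.23% in knockout cells and 2.89% in parental cells. In bulk RNA, fewer cells of a kind and less RNA per cell cannot be told apart.

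**Figure D1:**
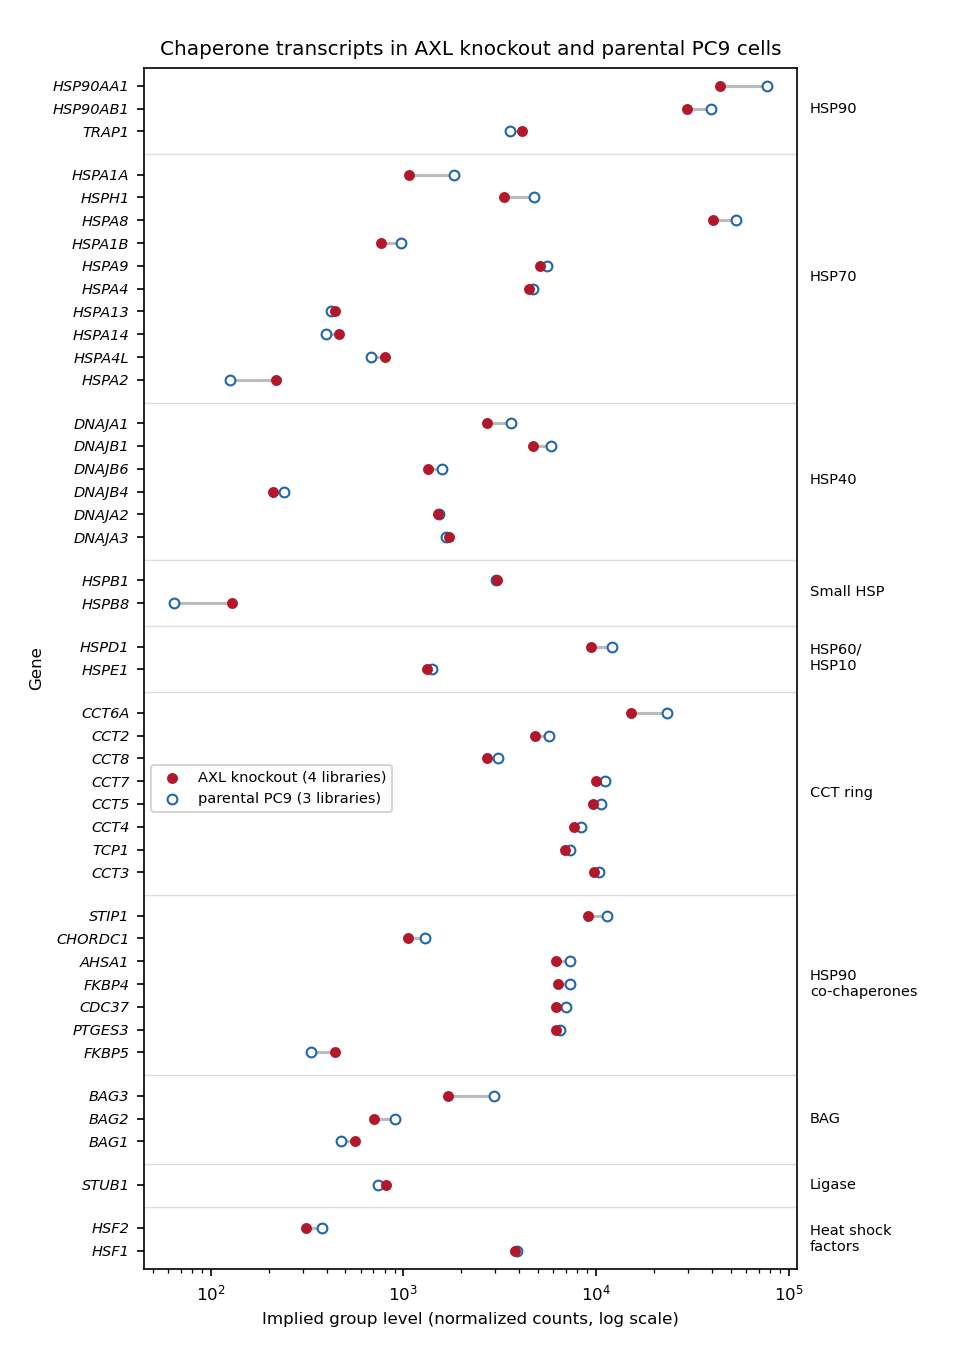
Level of each of the 44 chaperone genes in AXL knockout cells (filled points, 4 libraries) and parental cells (open points, 3 libraries), in normalized counts on a log axis, grouped by class. The levels are implied by the deposited mean and fold change and carry no error bar, and the widest gap in counts is that of HSP90AA1, at 43959 in knockout cells and 77129 in parental cells.

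The counts are tags per gene and are not corrected for transcript length. The sum is weighted toward the abundant genes. HSP90AA1 alone made up 39.6% of the net difference of -83858 normalized counts, HSPA8 made up 15.3% and HSP90AB1 12.2%. Without these 3 genes the other 41 summed to a difference of -15% between knockout and parental cells. The direction of the calls also went with abundance. Of the 32 members with a mean of at least 1000 normalized counts, 22 were lower and only TRAP1 was higher, beside 27.7% lower and 31.7% higher among all genes with such a mean. Of the 12 members with a mean under 1000, 3 were lower and 6 were higher, beside 16.5% lower and 16.9% higher among all genes with such a mean. This division at 1000 was made after the values had been seen.

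The sequences of 7 members are shown because their promoter windows hold a heat shock element of 3 cores, and the same 7 genes are among those whose fold changes are described below. RefSeq windows of 300 bases (GRCh38.p14), 250 before to 50 after an annotated start, were at hand for 39 of the 44 genes. FKBP4, STUB1, CCT6A, HSF1 and HSPA14 had none. The 3-core motifs searched, on both strands, were GAANNTTCNNGAA and TTCNNGAANNTTC. Capitals mark the matched element, and each stretch is on the strand of its gene.

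HSP90AA1, chr14:102087112-102087140, minus strand: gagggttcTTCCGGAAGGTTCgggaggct

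HSP90AB1, chr6:44247770-44247798, plus strand: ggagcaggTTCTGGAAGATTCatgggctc

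HSP90AB1, chr6:44247823-44247851, plus strand: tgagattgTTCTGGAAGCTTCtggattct

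HSPA8, chr11:123062346-123062374, minus strand: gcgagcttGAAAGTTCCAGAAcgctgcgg

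HSPA8, chr11:123062171-123062199, minus strand: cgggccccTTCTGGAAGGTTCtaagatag

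HSPD1, chr2:197500062-197500090, minus strand: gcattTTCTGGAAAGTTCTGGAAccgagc

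DNAJA1, chr9:33025268-33025296, plus strand: gccgggcgGAACTTTCCAGAAcgctcggt

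DNAJB6, chr7:157336865-157336893, plus strand: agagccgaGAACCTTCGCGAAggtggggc

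CHORDC1, chr11:90223084-90223112, minus strand: ccgGAAAATTCGCGAAGGTTCCTGAAacg

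The element of HSP90AA1 lay 88 to 76 bases before the start, and HSP90AB1 and HSPA8 each held a pair of separate elements. The capitals of CHORDC1 span 23 bases and those of HSPD1 18 bases, in which overlapping matches were joined. That of DNAJA1 lay 4 to 16 bases after the start. The HSPD1 element lay 245 to 228 bases before the more downstream of its annotated starts. It was outside the window of HSPE1, the gene that shares this promoter region head to head.

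A 3-core element was found in 7 of the 39 genes with a window (17.9%), against 55 of 11475 tested genes with a window (0.479%) and 172 of all 35116 windows (0.49%). The members were chosen by name as chaperones, so the share describes the list. All 7 were lower in knockout cells, with log2 fold changes of -0.81 to -0.24 and a median of -0.40. These 7 genes all had a mean of at least 1000 normalized counts, where 22 of 32 members were lower. The part of abundance in these values was not tested. A further 13 genes held only the shorter GAANNTTC or TTCNNGAA, which lie within the 3-core motifs, and 8 of these were lower and 2 higher, with a median of -0.20. Among the 19 genes with neither form, 8 were lower and 4 higher, with a median of -0.08. These ran from -0.79 (BAG3) to 0.79 (HSPA2), with HSPH1 at -0.51. The genes with only the shorter form ran from -0.78 (HSPA1A) to 1.01 (HSPB8). The 2-core form was common, in 51.3% of the member genes and 13.7% of all tested genes with a window. Of 48 tested genes outside the list that held a 3-core element, 11 were lower (22.9%) and 7 higher (14.6%), with a median of -0.05. A match is a match of letters, and its absence says nothing about binding of a factor.

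**Figure D2:**
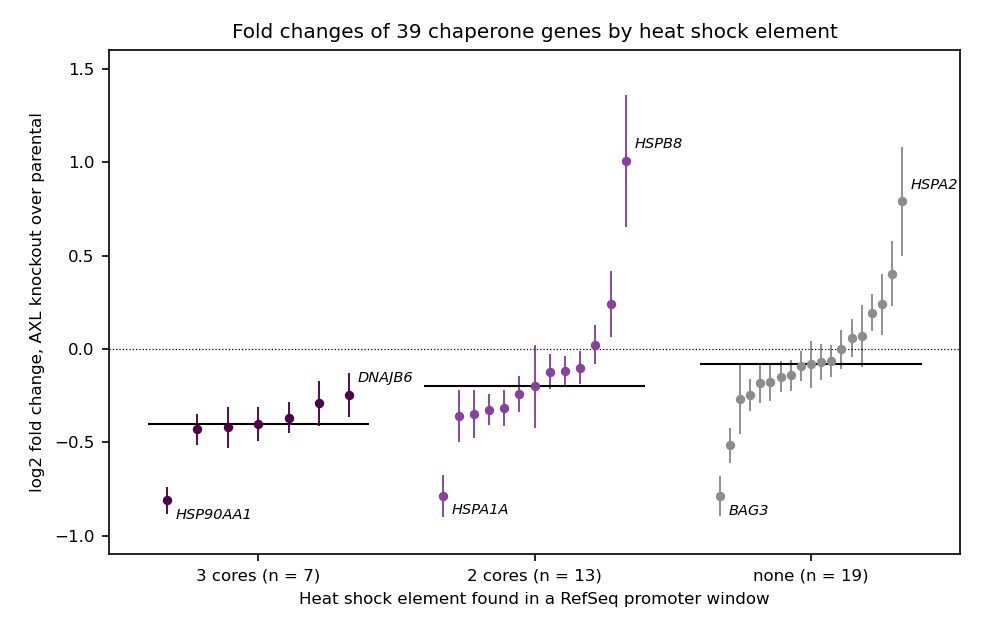
log2 fold change of AXL knockout over parental cells for the 39 chaperone genes with a RefSeq promoter window, by the longest form of heat shock element found in it. Points are genes with 95% intervals from the deposited standard errors, black lines are medians (-0.40, -0.20 and -0.08), and the genes at the ends of each column are named.

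Of the heat shock factors, HSF2 was lower and HSF1 did not pass. HSF1, the main regulator of the heat shock response, stood at 3793 normalized counts in knockout cells and 3882 in parental cells, with a log2 fold change of -0.03 ± 0.05 (SE, adjusted p = 0.677) and a 95% interval of -0.14 to 0.07. HSF2, a related factor that can form mixed trimers with HSF1, stood at 313 normalized counts in knockout cells and 377 in parental cells (log2 -0.27 ± 0.10, adjusted p = 0.0158). These are transcript levels, and HSF1 is regulated mostly through its protein.

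Both cytosolic HSP90 genes fell, and the stress-inducible form fell further. HSP90AA1, which encodes the inducible HSP90 alpha (GRCh38 chr14:102080738-102139699, minus strand), stood at 43959 normalized counts in knockout cells and 77129 in parental cells, a log2 fold change of -0.81 ± 0.04 (SE, adjusted p = 2.41e-104). HSP90AB1, the constitutive HSP90 beta, stood at 29468 normalized counts in knockout cells and 39678 in parental cells (log2 -0.43 ± 0.04, adjusted p = 8.72e-23). The pair summed to 73426 normalized counts in knockout cells and 116807 in parental cells, a difference of -37.1%. The alpha gene's fold change was 0.38 lower on the log2 scale than the beta gene's, and their 95% intervals did not overlap. TRAP1, the mitochondrial HSP90, went the other way, at 4111 normalized counts in knockout cells and 3594 in parental cells (log2 0.19 ± 0.05, adjusted p = 5.04e-04). The last 300 bases of the HSP90AA1 and HSP90AB1 transcripts, the part that 3′ tags read, matched at 50.6% of positions when aligned with gaps. The level that unrelated sequences reach in such an alignment was not computed.

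**Figure D3:**
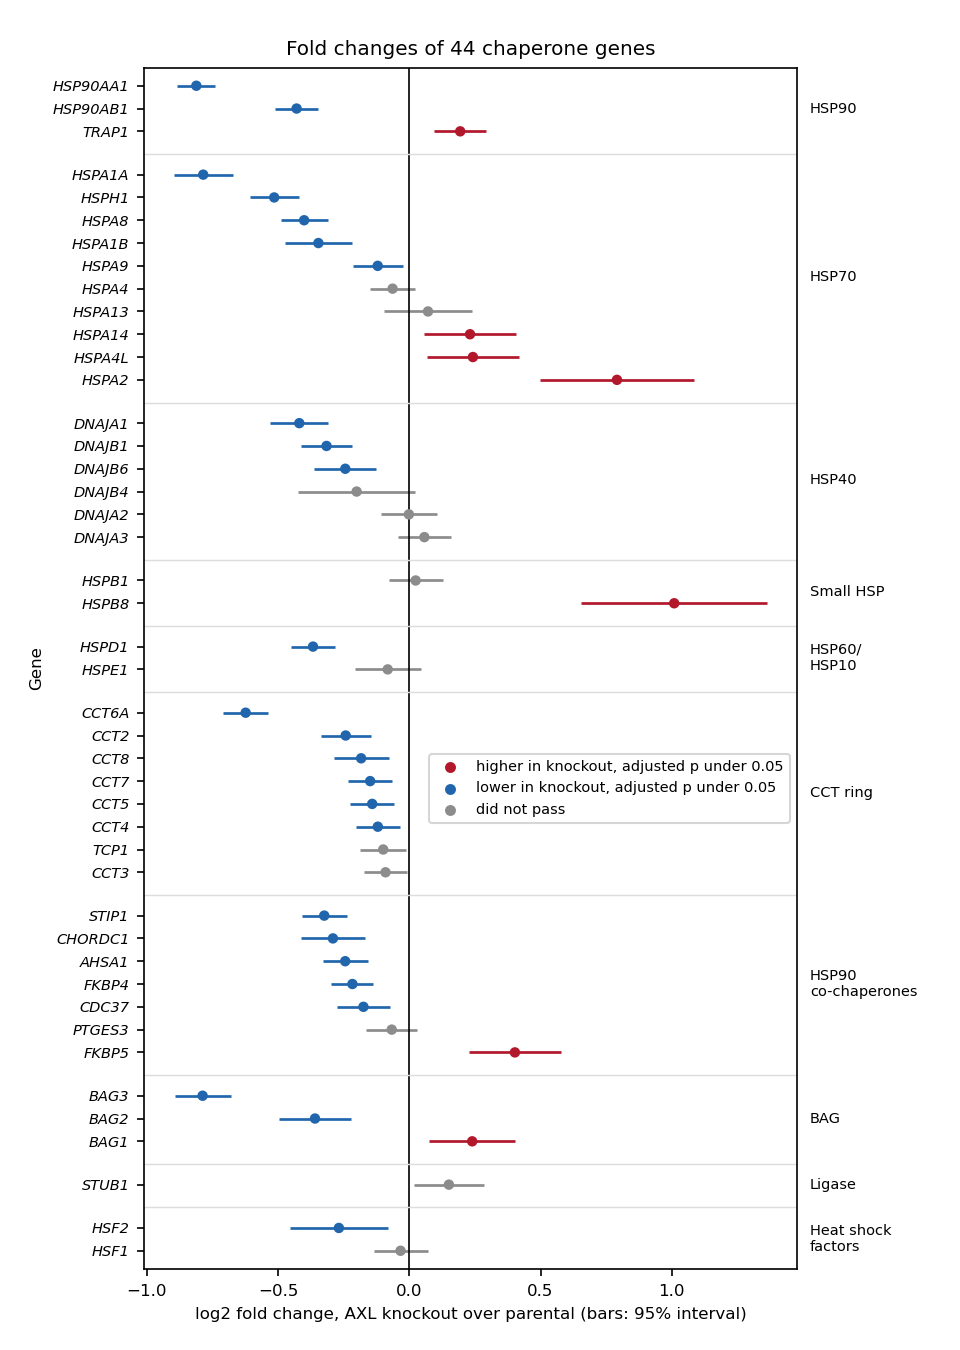
log2 fold change of AXL knockout over parental cells for each of the 44 genes, with 95% intervals from the deposited standard errors, grouped by class and ordered by fold change within each class. Colours mark the 7 genes higher in knockout cells, the 25 lower and the 12 that did not pass, and all 8 CCT subunits lie below 0.

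The HSP70 class was mixed, with 5 of 10 genes lower (50%) and 3 higher (30%), beside 18.5% lower and 19.5% higher among all genes. HSPA8, the constitutive cytosolic HSP70 (HSC70), stood at 40208 normalized counts in knockout cells and 53074 in parental cells (log2 -0.40 ± 0.05, adjusted p = 3.01e-17). HSPA1A, a stress-inducible HSP70 (chr6:31815464-31817946, plus strand), stood at 1068 normalized counts in knockout cells and 1840 in parental cells (log2 -0.78 ± 0.06, adjusted p = 8.22e-41). Its neighbour HSPA1B, which encodes a nearly identical protein, fell less, at 763 normalized counts in knockout cells and 970 in parental cells (log2 -0.35 ± 0.07, adjusted p = 7.53e-07). The transcripts of this pair are 88.7% identical over their length and 51.2% over the last 300 bases, so tags away from the 3′ end could be assigned to either gene. HSPH1, an HSP110 exchange factor for HSP70, stood at 3318 normalized counts in knockout cells and 4740 in parental cells (log2 -0.51 ± 0.05, adjusted p = 1.59e-25). HSPA4, another HSP110 relative, did not pass, at 4484 normalized counts in knockout cells and 4687 in parental cells (log2 -0.06 ± 0.04, adjusted p = 0.269).

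Among the HSP70 genes that were higher, HSPA2, best known from the testis, had the largest fold change. It stood at 219 normalized counts in knockout cells and 127 in parental cells (log2 0.79 ± 0.15, adjusted p = 8.22e-07). HSPA4L, a further HSP110 relative, stood at 804 normalized counts in knockout cells and 680 in parental cells (log2 0.24 ± 0.09, adjusted p = 0.0211), and HSPA14, the ribosome-associated HSP70, at 464 in knockout cells and 396 in parental cells (log2 0.23 ± 0.09, adjusted p = 0.0294). The last is overlapped on its own strand by MSANTD7, which did not pass (log2 -0.23 ± 0.11, adjusted p = 0.0757). HSPA13 stood at 441 normalized counts in knockout cells and 420 in parental cells and did not pass (adjusted p = 0.564). HSPA6, a strictly heat-inducible HSP70 that is no member and was picked after its values were seen, was close to the floor, at 3.79 normalized counts in knockout cells and 3.86 in parental cells.

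The 6 HSP40 genes, whose J domains drive the ATPase of HSP70, had 3 lower (50%) and none higher. Among all genes 18.5% were lower and 19.5% higher. DNAJA1, a farnesylated cytosolic HSP40, stood at 2704 normalized counts in knockout cells and 3615 in parental cells (log2 -0.42 ± 0.06, adjusted p = 1.17e-12). DNAJB1, the canonical heat-inducible HSP40, stood at 4702 normalized counts in knockout cells and 5850 in parental cells (log2 -0.32 ± 0.05, adjusted p = 2.94e-09). DNAJB6, known for holding back polyglutamine aggregates, stood at 1346 normalized counts in knockout cells and 1594 in parental cells (log2 -0.24 ± 0.06, adjusted p = 2.34e-04). The relative of DNAJA1, DNAJA2, differed by 0.00 ± 0.05 on the log2 scale, at 1522 normalized counts in knockout cells and 1524 in parental cells (adjusted p = 0.988). DNAJB4 (log2 -0.20 ± 0.11, adjusted p = 0.16) and the mitochondrial DNAJA3 (log2 0.06 ± 0.05, adjusted p = 0.422) did not pass.

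Neither small heat shock protein was lower. HSPB1, or HSP27, which binds unfolded proteins without ATP, stood at 3059 normalized counts in knockout cells and 3007 in parental cells (log2 0.02 ± 0.05, adjusted p = 0.772), with a 95% interval of -0.08 to 0.13. HSPB8, the partner of BAG3 in selective autophagy of aggregates, had the largest rise of the 44 genes. It stood at 130 normalized counts in knockout cells and 64.4 in parental cells (log2 1.01 ± 0.18, adjusted p = 1.75e-07).

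The BAG proteins exchange the nucleotide of HSP70, and 2 of the 3 were lower (66.7%), beside 18.5% of all genes. BAG3, the stress-inducible member (chr10:119651370-119677819, plus strand), stood at 1709 normalized counts in knockout cells and 2949 in parental cells (log2 -0.79 ± 0.05, adjusted p = 1.59e-45). BAG2, which inhibits STUB1, stood at 708 normalized counts in knockout cells and 908 in parental cells (log2 -0.36 ± 0.07, adjusted p = 2.13e-06). BAG1, which links HSP70 to the proteasome, was higher, at 561 normalized counts in knockout cells and 475 in parental cells (log2 0.24 ± 0.08, adjusted p = 0.0128). STUB1, the ubiquitin ligase CHIP that marks chaperone clients for degradation, stood at 816 normalized counts in knockout cells and 735 in parental cells (log2 0.15 ± 0.07) and did not pass (adjusted p = 0.0667).

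Of the 7 HSP90 co-chaperones, 5 were lower (71.4%) and 1 was higher (14.3%), beside 18.5% lower and 19.5% higher among all genes. STIP1, the HOP adaptor between HSP70 and HSP90, stood at 9108 normalized counts in knockout cells and 11400 in parental cells (log2 -0.32 ± 0.04, adjusted p = 1.45e-12). CHORDC1 (log2 -0.29 ± 0.06, adjusted p = 1.47e-05) and AHSA1, the activator of the HSP90 ATPase (log2 -0.24 ± 0.04, adjusted p = 1.99e-07), were also lower. CDC37, which delivers kinases to HSP90, stood at 6192 normalized counts in knockout cells and 6989 in parental cells (log2 -0.17 ± 0.05, adjusted p = 0.00299). PTGES3, the p23 co-chaperone of the closed HSP90, stood at 6171 normalized counts in knockout cells and 6464 in parental cells and did not pass (log2 -0.07 ± 0.05, adjusted p = 0.305).

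The 2 FKBP immunophilins of the steroid receptor complexes moved in opposite directions. FKBP5, or FKBP51, known as a glucocorticoid-induced gene, stood at 441 normalized counts in knockout cells and 333 in parental cells (log2 0.40 ± 0.09, adjusted p = 3.32e-05). FKBP4, or FKBP52, stood at 6310 normalized counts in knockout cells and 7332 in parental cells (log2 -0.22 ± 0.04, adjusted p = 7.82e-07). Their fold changes were 0.62 apart on the log2 scale, and the 95% intervals did not overlap.

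All 8 subunits of the CCT ring, in which each subunit type is built once per ring, had negative fold changes, and 6 passed. These 6 are 75% of the class, beside 18.5% of all genes called lower. With t quantiles of 5 degrees of freedom in the test, 2 passed, CCT6A and CCT2, and with a minimum of 0.5 on the log2 scale CCT6A alone did. CCT6A (chr7:56051630-56063989, plus strand) was apart from the rest, at 15226 normalized counts in knockout cells and 23453 in parental cells (log2 -0.62 ± 0.04, adjusted p = 1.69e-43). The other 7 lay between -0.24 and -0.09 on the log2 scale. CCT2 had the most negative fold change of them, at 4828 normalized counts in knockout cells and 5711 in parental cells (log2 -0.24 ± 0.05, adjusted p = 4.58e-06), and its 95% interval did not overlap that of CCT6A. CCT8 (log2 -0.18 ± 0.05, adjusted p = 0.00245), CCT7 (log2 -0.15 ± 0.04, adjusted p = 0.00173), CCT5 (log2 -0.14 ± 0.04, adjusted p = 0.00406) and CCT4 (log2 -0.12 ± 0.04, adjusted p = 0.0176) were lower too. TCP1 (log2 -0.10 ± 0.05, adjusted p = 0.0701) and CCT3 (log2 -0.09 ± 0.04, adjusted p = 0.0784) did not pass. The 8 summed to 66683 normalized counts in knockout cells and 80026 in parental cells, a difference of -16.7%. CCT6A has 4 annotated pseudogenes, of which 3 had a row, with means that sum to 40.0 normalized counts.

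The 5 mitochondrial members had 2 genes lower (40%) and 1, TRAP1, higher (20%), with a median of -0.08. Among all genes 18.5% were lower and 19.5% higher, so the share higher was near that of all genes. HSPD1, the HSP60 of the folding chamber, stood at 9361 normalized counts in knockout cells and 12070 in parental cells (log2 -0.37 ± 0.04, adjusted p = 1.77e-16). HSPE1, the HSP10 lid of the same chamber, did not pass, at 1330 normalized counts in knockout cells and 1408 in parental cells (log2 -0.08 ± 0.06, adjusted p = 0.343). The fold changes of this pair, which are transcribed from a shared bidirectional promoter region, were 0.28 apart with 95% intervals that did not overlap. HSPA9, the mitochondrial HSP70 mortalin, stood at 5097 normalized counts in knockout cells and 5541 in parental cells (log2 -0.12 ± 0.05, adjusted p = 0.0359). All 13 protein-coding transcripts of the mitochondrial genome were lower in the same cells, with a median log2 fold change of -0.73. Of 73 cytosolic ribosomal protein genes, 9 were lower (12.3%) and 13 higher (17.8%), with a median of 0.02. The part of the mitochondrial transcripts in these results was not tested. In the cytosol, 22 of 36 members were lower (61.1%) and 6 higher (16.7%), with a median of -0.19. Whether the compartments differ was not tested.

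Outside the 44 genes, 81 further chaperones, helpers and heat shock regulators were listed, and 76 had a test. Beside 18.5% lower and 19.5% higher among all genes, 18 of these 76 were lower (23.7%) and 14 higher (18.4%). Their median log2 fold change was -0.02. Their summed level was 122514 normalized counts in knockout cells and 126006 in parental cells. The list was drawn up with the results of the 44 genes in view, so the lower share is described and not read as particular to either list.

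**Figure D4:**
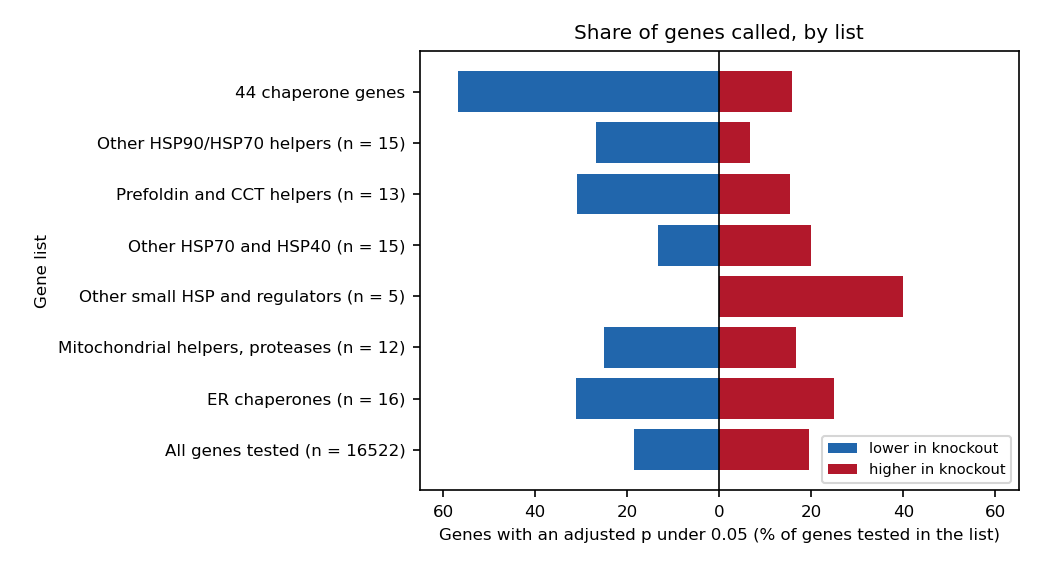
Share of genes called lower (bars to the left) and higher (bars to the right) in AXL knockout cells, at the same threshold of 0.05, in percent of the genes tested in each list. The 44 chaperone genes had 56.8% lower and 15.9% higher, and all 16522 genes had 18.5% lower and 19.5% higher.

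The 15 other HSP90 and HSP70 helpers had 4 genes lower (26.7%) and 1 higher (6.67%), beside 18.5% lower and 19.5% higher among all genes. BAG5, a BAG-family exchange factor, stood at 1607 normalized counts in knockout cells and 2183 in parental cells (log2 -0.44 ± 0.06, adjusted p = 1.92e-14). PPID, the cyclophilin 40 partner of HSP90 (log2 -0.42 ± 0.08, adjusted p = 1.52e-06), and SUGT1 (log2 -0.32 ± 0.08, adjusted p = 1.90e-04) were lower, and FKBP8, a membrane-anchored FKBP, was higher (log2 0.21 ± 0.05, adjusted p = 2.22e-04). Of 15 other HSP70 and HSP40 genes, 2 were lower (13.3%) and 3 higher (20%), beside the same shares of all genes. DNAJC9, a J protein that also handles histones, was lower (log2 -0.43 ± 0.09, adjusted p = 5.85e-06). DNAJC5, the cysteine string protein of secretory vesicles, was higher, at 2728 normalized counts in knockout cells and 2110 in parental cells (log2 0.37 ± 0.05, adjusted p = 4.96e-13), as were DNAJC21 and DNAJB12 (log2 0.24 ± 0.06 each).

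Of 13 genes for prefoldin and other helpers of CCT, 4 were lower (30.8%) and 2 higher (15.4%), beside 18.5% lower and 19.5% higher among all genes. PDCL3, a phosducin-like partner of CCT, stood at 295 normalized counts in knockout cells and 422 in parental cells (log2 -0.51 ± 0.09, adjusted p = 1.12e-07). Of the prefoldin subunits, which carry new actin and tubulin to CCT, PFDN2 was lower (log2 -0.22 ± 0.07, adjusted p = 0.00558), and PFDN5 (log2 0.22 ± 0.06, adjusted p = 5.05e-04) and PFDN6 (log2 0.30 ± 0.08, adjusted p = 7.69e-04) were higher. Of the small heat shock proteins and regulators outside the 44, 5 of 9 had a row, with none lower and 2 higher (40% of the 5). CRYAB, the alpha B crystallin, was scarce, at 15.6 normalized counts in knockout cells and 2.90 in parental cells (log2 2.43 ± 0.65, adjusted p = 8.33e-04), and HSPB11 was higher at 447 in knockout cells and 376 in parental cells (log2 0.25 ± 0.09, adjusted p = 0.0213).

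Among 12 mitochondrial helpers and proteases, 3 were lower (25%) and 2 higher (16.7%), beside 18.5% lower and 19.5% higher among all genes. CLPB, a mitochondrial disaggregase (log2 -0.48 ± 0.08, adjusted p = 3.78e-08), and SPG7, a subunit of an inner membrane protease (log2 -0.39 ± 0.08, adjusted p = 1.45e-06), were lower. HTRA2, a protease of the intermembrane space, was higher, at 404 normalized counts in knockout cells and 284 in parental cells (log2 0.51 ± 0.10, adjusted p = 3.56e-06), and CLPP, the matrix protease, also (log2 0.17 ± 0.07, adjusted p = 0.0322). Of 16 endoplasmic reticulum chaperones, 5 were lower (31.2%) and 4 higher (25%), with a median of 0.01. SERPINH1, the collagen chaperone HSP47, stood at 1912 normalized counts in knockout cells and 2950 in parental cells (log2 -0.63 ± 0.05, adjusted p = 1.85e-32). DNAJC10 (log2 -0.27 ± 0.04, adjusted p = 8.71e-09) and DNAJC3 (log2 -0.30 ± 0.08, adjusted p = 8.56e-04) were lower, and SDF2L1 was higher (log2 0.49 ± 0.12, adjusted p = 1.77e-04).

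Since a clone can carry changes of its founding cell, the fold changes of the chromosomal neighbours are given beside the members. For each gene up to 10 protein-coding genes on either side with a mean of at least 50 normalized counts were taken in GENCODE 29 order. HSPA13, DNAJB6 and FKBP4 had only 10, 13 and 18 such neighbours. The window medians ran from -0.36 to 0.40 on the log2 scale, and 2 of the 44 lay below -0.2 and 4 above 0.2. BAG3, on chromosome 10, had the lowest window median, with 16 of its 20 neighbours lower (median -0.36, against -0.79 for BAG3). HSPB8, on chromosome 12, had 12 of 20 neighbours higher (median 0.28, against 1.01 for HSPB8). CCT6A, on chromosome 7, had 10 of 20 neighbours lower and 2 higher, with a median of -0.19, and its neighbour PSPH was lower by more than CCT6A itself, at -0.73. Of the smaller falls, CCT5 lay at -0.141 against a window median of -0.155, AHSA1 at -0.244 against -0.151 and HSF2 at -0.268 against -0.125. The part of all these regions in the fold changes was not tested.

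For some other members the window median had the opposite sign to the gene's own fold change. HSPA8, on chromosome 11, fell among neighbours with a median of 0.40, of which 11 were higher and 1 lower. DNAJB1, on chromosome 19, fell where 14 of 20 neighbours were higher (median 0.36), and TECR, which overlaps it on the other strand, was higher as well (log2 0.43 ± 0.06, adjusted p = 4.34e-13). CHORDC1 had a window median of 0.24 and HSPA4L of -0.22, both of opposite sign to the gene. HSPA1A, on chromosome 6, had a window median of only 0.04, with 4 neighbours higher and 1, HSPA1B, lower. The part of these regions in the fold changes of these members was not tested.

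HSP90AA1, on chromosome 14, had a window median of -0.09, of the same sign as its own fold change of -0.81, with 7 of 20 neighbours lower and 4 higher. The nearest genes on both sides were among those lower, DYNC1H1 at -0.66 and WDR20 at -0.26 on the log2 scale. Their part in the fold change of HSP90AA1 was not tested.

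**Figure D5:**
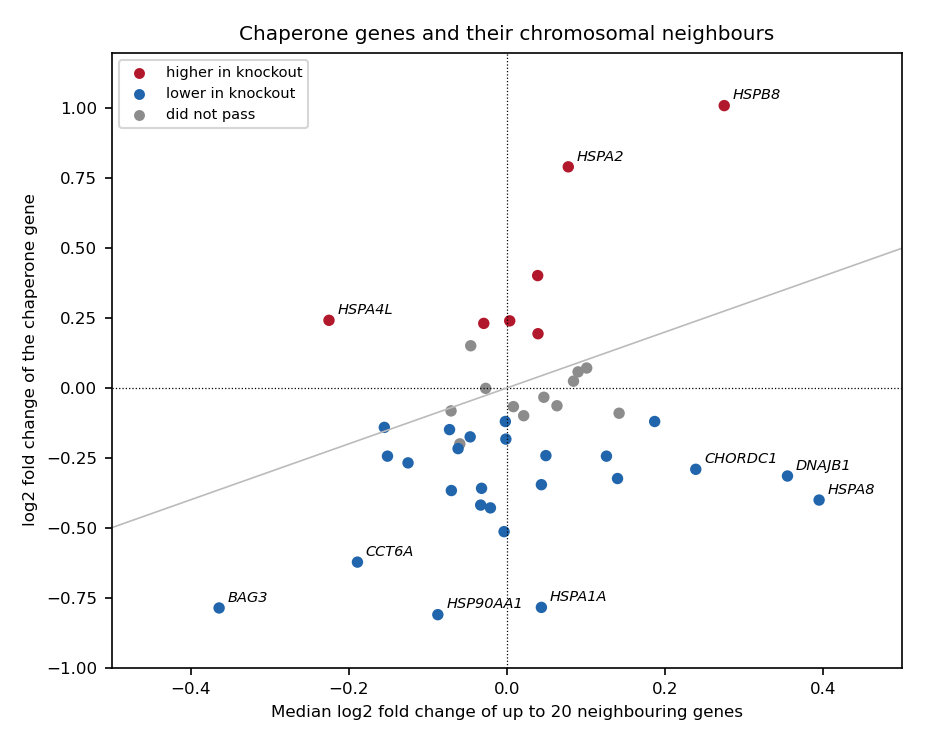
log2 fold change of each chaperone gene (vertical axis) against the median log2 fold change of up to 20 neighbouring protein-coding genes (horizontal axis), AXL knockout over parental cells, with the grey line marking equal values. BAG3 lies at the lower left (-0.36, -0.79) and HSPA8 at the lower right (0.40, -0.40).

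The p-values rest on 4 knockout libraries of 2 clones and 3 parental libraries, and so reflect how these libraries vary, which may be technical in part.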

How the data were processed

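RNA of AXL knockout PC9 cells (4 libraries, 2 clones) and parental PC9 cells (3 libraries) was processed by bulk MARS-seq, mapped to the human genome and filtered, per the labels' protocols. Per the submitters' processing notes DESeq2 was used, with no version stated. Not given in the sources used here are the aligner, genome build, annotation, strand setting and any use of molecular identifiers. Each gene's row in the table deposited by the authors holds, per the file headers, a signal (the mean of normalized counts over the libraries), the log2 fold change and its error, both log2 values, a Wald statistic as a score, and the raw and adjusted p-value. The deposited adjusted p equals a Benjamini-Hochberg correction across the 16522 tested of 16527 rows. Values per library were not analysed here, so the edgeR count test that had been planned was replaced by these statistics.

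The table does not name its contrast. In the 68 rows whose mean is positive but below 0.6, each mean is a whole-number sum of a few of the same 7 steps (tolerance 1e-10). By the signs and order of the fold changes, 3 steps lie on the negative and 4 on the positive side, as the labels have 3 parental and 4 knockout libraries. Positive was therefore taken as higher in knockout cells. Each group's level was computed from mean and fold, weighting 4 knockout and 3 parental libraries. Tested on simulated data for the 10794 genes with a mean of at least 50, the median error of a level was 0.0256% and the largest 0.54%. The simulation gave every gene the same dispersion, so the error for genes that vary more was not measured. Intervals are 95% normal intervals. Symbols, positions and overlaps are from GENCODE 29 and promoter windows from RefSeq. Python 3.11.15, pandas 2.3.3, numpy 2.4.6, scipy 1.17.1 and Biopython 1.88 were used. The members, lists and settings were chosen with earlier results of these data known. All 44 members are named by class, and of each other chaperone list up to 4 genes with the smallest p. Depth per library is unknown, with size factors of 0.938 to 1.06 from the lowest rows.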

Additional observations from a re-analysis of the deposited data

How the results depend on the processing

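No paired analysis was possible because the table holds comparison statistics and no column per library. For the same reason the edgeR test with other normalizations and the omission of each library in turn were not run. A minimum mean of 20 and centring on the median fold change kept all 32 calls among the 44 genes, and no member changed sign or was newly called under any of 6 alternatives. At a threshold of 0.01, 22 genes were lower and 4 higher, beside 2378 lower and 2572 higher of all 16522 genes. Of the 4 higher, 3 were in the cytosol and nucleus, and 1 mitochondrial gene was lower. The calls of HSF2, HSPA4L, HSPA14, HSPA9, BAG1 and CCT4 were lost there. With a minimum of 0.5 on the log2 scale, 5 genes were lower and 2 higher, all in the cytosol (0 mitochondrial), beside 3 lower and 2 higher other chaperones and 1491 lower (9.02%) and 1595 higher (9.65%) of all genes. With 5 degrees of freedom, 18 were lower and 3 higher, with 3 higher in the cytosol, 1 lower and 0 higher in the mitochondrion, 9 lower and 4 higher other chaperones, and 1614 lower and 1862 higher of all genes. That removed TRAP1, CDC37, CCT5, CCT7 and CCT8 as well as the 6 above. With 2 degrees of freedom every count was 0, but the smallest adjusted p over all genes was 0.226, so that no gene could pass, AXL included, and these zeros say nothing about stability. The calls of 21 members (18 lower, and HSPA2, HSPB8 and FKBP5 higher) held under the 4 alternatives other than the minimum fold and 2 degrees of freedom. Changes of this kind follow from the construction of each setting. Clone, culture and depth per library limit all of these values and could not be examined.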

Other observations

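Reads of near-identical copies could add to several members, since chaperone genes have many processed pseudogenes. GENCODE 29 annotates 105 pseudogenes of these families, and 23 had a row in the authors' deposited table. Their means sum to 418 normalized counts, 0.136% of the 306509 of the 44 genes. Of the 23 pseudogenes, 3 were lower in knockout cells and none higher, beside 18.5% lower and 19.5% higher among all genes. Another gene of the table overlapped 16 of the 44 members, 3 of them on the same strand, and the use of strand in counting is not given in the sources used here. WDR20, which overlaps HSP90AA1 on the other strand, was lower (log2 -0.26 ± 0.07, adjusted p = 7.80e-04) with a mean of 824 normalized counts. DNASE1, which overlaps TRAP1 on the other strand, was lower (log2 -0.41 ± 0.11, adjusted p = 5.54e-04) while TRAP1 was higher.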
